A study of Mus musculus with 6 samples.

Results

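A set of 31 genes of ribosome biogenesis and the nucleolus was followed in immortalized Kdm5a-/- mouse embryonic fibroblasts. The members were looked up by current or older symbol in the array's platform annotation, and each was read from the brightest of its single-gene probe sets by mean of 6 arrays, leaving aside identifiers that end in _x_at, which can cross-hybridize, where another existed. All 31 were found, among 18194 genes measured. By role they comprised 5 nucleolar scaffold proteins and regulators, 4 proteins of box C/D and 3 of box H/ACA small nucleolar ribonucleoprotein particles (snoRNPs), 7 assembly factors of the large and 5 of the small ribosomal subunit, 3 genes of RNA polymerase I transcription, and 4 MYC targets in polyamine synthesis, pyrimidine synthesis and translation.

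KDM5A is a demethylase that removes methyl groups from lysine 4 of histone H3, and the H483A change replaces a histidine of its catalytic domain with alanine. Immortalized Kdm5a-/- fibroblasts of mixed background strain, kept subconfluent in DMEM with 10% fetal bovine serum, had received KDM5A-H483A, wild-type KDM5A or an empty vector, so every group shares the Kdm5a deletion, the immortalization and a vector. Each of the 3 groups had 2 arrays of type Affymetrix M430 2.0, numbered as biological replicates 1 and 2. The labels do not state how the cultures were separated, whether a line is a clone or a pool, or which promoter drives KDM5A, and p-values therefore measure the spread between these samples, which may be technical. Values are the deposited log2 expression levels, on which a difference of 1 is a doubling of signal, and levels of different genes cannot be compared because each probe set has its own brightness.

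Ribosomes are built in the nucleolus, where RNA polymerase I transcribes the ribosomal RNA precursor. Box C/D snoRNPs guide its methylation, box H/ACA snoRNPs guide its pseudouridylation, and large sets of assembly factors cut, fold and export the subunits. The genes of this pathway are known as a group that follows growth signals and MYC, a transcription factor that binds the E-box CACGTG with its partner MAX.

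The cells carried connective tissue genes, with 15 of 17 fibroblast markers above the median probe set on all 6 arrays, against 3 of 9 epithelial, 2 of 8 endothelial and 3 of 8 measured blood cell markers. Of the muscle and smooth muscle markers 6 of 8 were above it too. Among them were Acta2, Tagln and Cnn1, which cultured fibroblasts also express, and Des, Myog and Ckm. Of the neural markers 4 of 6 were above it, among them Nes and Sox2. For scale, 11892 of all 18194 genes had a mean over the 6 arrays above the median probe set, a looser bar. Standing above it is thus weak evidence that a gene is active in these cells. The probe set of Kdm5a read 6.11 and 5.89 on the KDM5A-H483A arrays, 5.96 and 5.83 on the wild-type KDM5A arrays and 5.89 and 5.83 on the empty vector arrays. Where it lies with respect to the deletion is unknown here, so it checks neither the deletion nor the reintroduced forms.

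Of the 31 members, 26 had a promoter window of 300 bases, running 250 bases before to 50 bases after an annotated start (RefSeq, GRCm38.p6), and Npm1, Fbl, Bop1, Rrp12 and Srm had none in the table used. The E-box CACGTG, which reads the same on both strands, stood in the window of 7 of the 26 members (26.9%), namely Mybbp1a, Nop2, Pes1, Utp18, Utp20, Wdr43 and Eif4a1. It stood in a window of 1479 of 14453 measured genes with a promoter entry (10.2%). CCGCCC, the sequence bound by the ARID domain of KDM5A, was found on either strand in 20 of the 26 members (76.9%) and 57.3% of the measured genes. Its reverse complement GGGCGG is also the GC box, so the matches cannot be assigned to a factor. A match only describes the letters of the window.

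The E-box stretches are printed because MYC and MAX are the best known regulators of this gene set, with CACGTG in capitals and positions counted from the annotated start as 1. In Utp18 the E-box began 20 bases before the start (chr11:93885767-93885866, minus strand), in Nop2 60 bases before it (chr6:125131776-125131875, plus strand) and in Eif4a1 189 bases before it (chr11:69672560-69672659, minus strand). In the other 4 members it lay just inside the transcript. It began at base 3 in Pes1 (chr11:3963965-3963994, plus strand), base 18 in Wdr43 (chr17:71616220-71616249, plus strand), base 38 in Utp20 (chr10:88826765-88826789, minus strand) and base 41 in Mybbp1a (chr11:72441355-72441376, plus strand).
Utp18: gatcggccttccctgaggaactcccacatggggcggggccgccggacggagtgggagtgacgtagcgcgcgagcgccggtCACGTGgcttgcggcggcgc
Nop2: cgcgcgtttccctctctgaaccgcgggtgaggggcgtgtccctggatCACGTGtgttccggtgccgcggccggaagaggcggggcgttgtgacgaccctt
Eif4a1: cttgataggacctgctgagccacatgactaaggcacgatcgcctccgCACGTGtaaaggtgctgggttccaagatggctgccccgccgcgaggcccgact
Pes1: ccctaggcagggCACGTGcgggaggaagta
Wdr43: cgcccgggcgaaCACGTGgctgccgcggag
Utp20: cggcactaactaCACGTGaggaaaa
Mybbp1a: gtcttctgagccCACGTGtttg

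The largest feature of the 31 genes in these arrays was a difference between the 2 arrays of the same group. The second KDM5A-H483A array stood above the first for 31 of 31 members, by a median of 0.8 on the log2 scale (0.03 to 1.77). The second wild-type KDM5A array stood above the first for 30 of 31, by a median of 0.46 (-0.16 to 1.3), with Ubtf the exception. The empty vector arrays showed no common direction, with 16 of 31 members higher on the second and a median difference of 0.0 (-0.48 to 0.56). Over all genes the corresponding medians were 0.0, -0.02 and 0.0 in the same groups. In bulk RNA, fewer cells of a type and less RNA per cell cannot be told apart.

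The difference reached at least 0.5 for 25 of 31 members in the KDM5A-H483A arrays, where 8.08% of all genes did so, and for 12 of 31 in the wild-type KDM5A arrays, where 4.52% did. It reached that size for 2 of 31 members in the empty vector arrays, Dkc1 and Srm, against 1.6% of all genes. In both KDM5A groups together, 11 of 31 members passed 0.5, against 1.67% of all genes. The members' mean levels lay between 5.02 and 11.11, and 10369 genes in that range had median differences of 0.02, -0.03 and 0.0 in the KDM5A-H483A, wild-type KDM5A and empty vector arrays. The replicate numbers have no stated meaning, and whether the second arrays of the KDM5A groups share a culture day or a processing step was not tested.

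**Figure D1:**
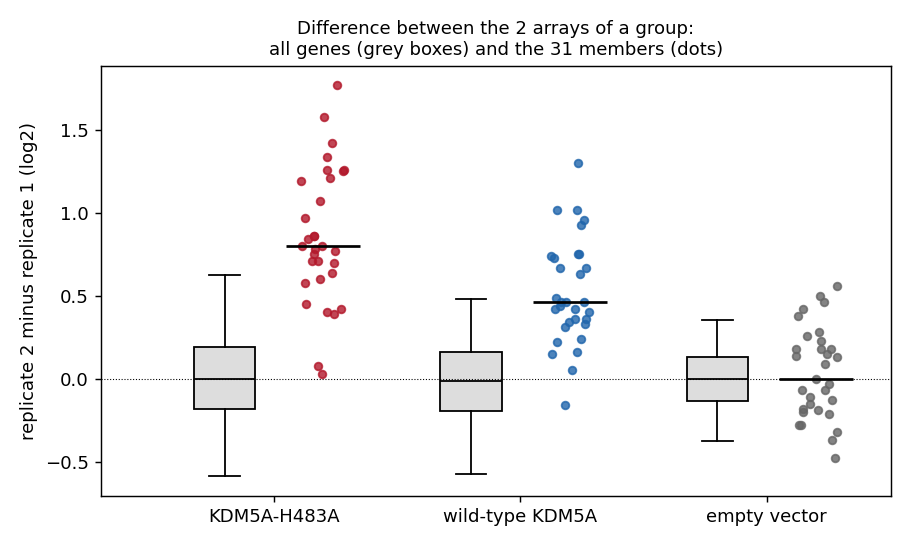
Difference between replicate 2 and replicate 1 of each group on the log2 scale for the 31 members, 1 point per gene with a bar at the median, beside boxes of all 18194 genes (median and quartiles, whiskers at the 5th and 95th percentile). All 31 points lie above 0 for KDM5A-H483A and 30 of 31 for wild-type KDM5A, while 16 of 31 do for empty vector.

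Across the 6 arrays, the second KDM5A-H483A array held the highest value of 25 of 31 members, against 23.1% of all genes. The first wild-type KDM5A array held the lowest value of 22 of 31 members, against 16.6% of all genes. For 18 of 31 members (58.1%) both were true, as for 1151 of all genes (6.33%). Relative to each gene's own mean over the 6 arrays, the median member stood at -0.27 and 0.62 on the KDM5A-H483A arrays, at -0.42 and 0.07 on the wild-type KDM5A arrays and at -0.06 and -0.02 on the empty vector arrays. By this median, both empty vector arrays lay between the 2 arrays of each KDM5A group.

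**Figure D2:**
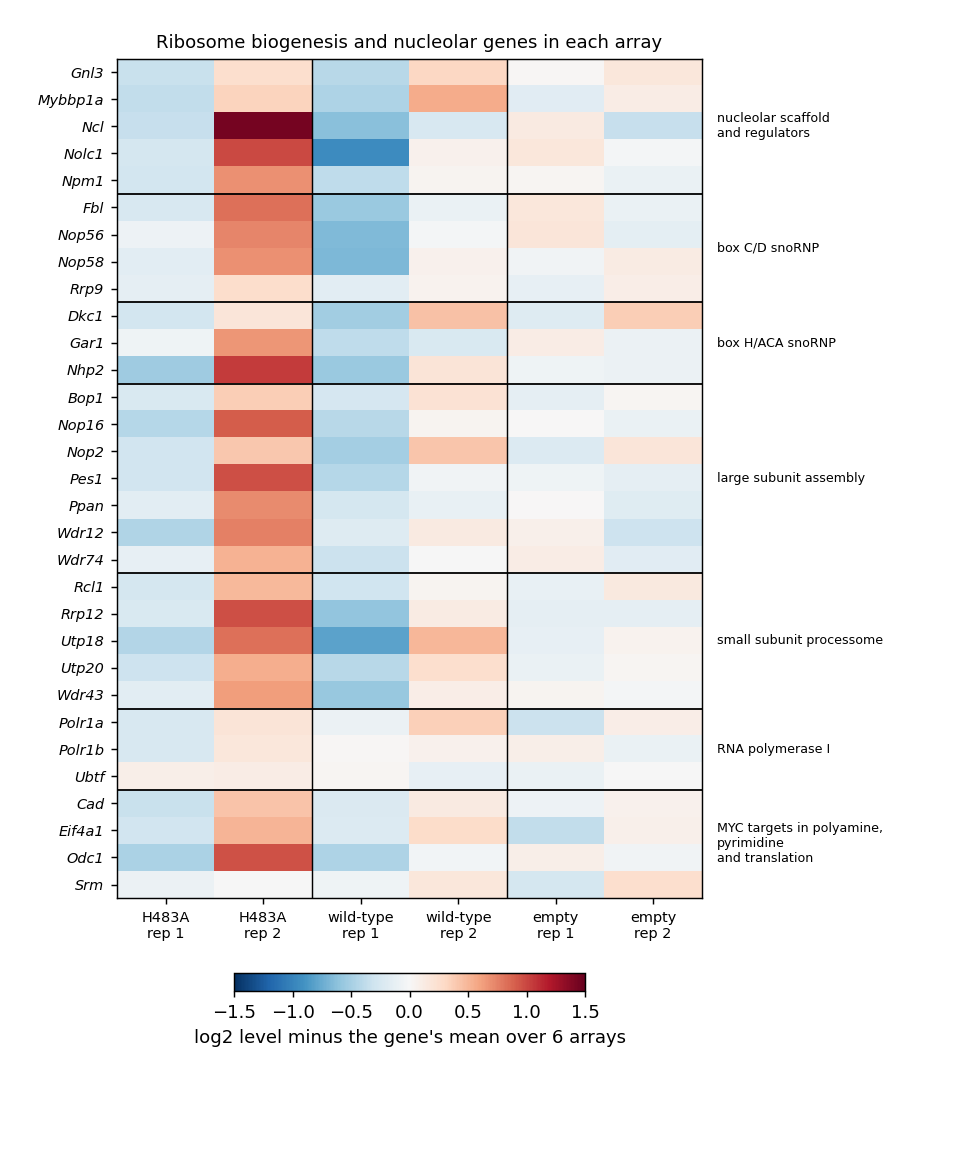
Level of each of the 31 members on each of the 6 arrays as a deviation from the gene's own mean (log2 scale, colour), grouped by role. The second KDM5A-H483A array is above the mean for 30 of 31 members, and the first wild-type KDM5A array is below it for 29 of 31.

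Among the nucleolar scaffold proteins and regulators, Ncl encodes nucleolin, an abundant RNA-binding protein of the nucleolus. Ncl had levels of 9.63 and 11.4 on the KDM5A-H483A arrays, 9.34 and 9.73 on the wild-type KDM5A arrays and 10.1 and 9.62 on the empty vector arrays. The second KDM5A-H483A array stood 3.42-fold above the first, the largest ratio between replicates among the members. Npm1, the gene of the nucleolar chaperone nucleophosmin, read 10.83 and 11.79 with KDM5A-H483A, 10.73 and 11.15 with wild-type KDM5A, against 11.14 and 11.01 with empty vector. For Nolc1, a chaperone of snoRNPs, the KDM5A-H483A arrays read 6.62 and 7.88, the wild-type KDM5A arrays 5.94 and 6.95 and the empty vector arrays 7.06 and 6.86. In Npm1 and Nolc1 both empty vector arrays lay between the low first and the high second KDM5A-H483A array, while in Ncl the second empty vector array was level with the first KDM5A-H483A array.

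Mybbp1a, which encodes a nucleolar protein that binds MYB and acts on RNA polymerase I transcription, read 9.11 and 9.82 with KDM5A-H483A, 9.02 and 10.04 with wild-type KDM5A, against 9.31 and 9.59 with empty vector. Gnl3, the gene of the nucleolar GTPase nucleostemin, read 7.93 and 8.51, 7.84 and 8.57, and 8.28 and 8.43 on the KDM5A-H483A, wild-type KDM5A and empty vector arrays. In these probe sets of Mybbp1a and Gnl3 the second wild-type KDM5A array was the highest of the 6, not the second KDM5A-H483A array. Another Mybbp1a probe set was highest on the second KDM5A-H483A array, at 7.24 against 6.76 on the second wild-type KDM5A array.

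The box C/D snoRNP genes shared a single order at the extremes. Fbl, the methyltransferase of the particle, read 8.08 and 9.15 on the KDM5A-H483A arrays, 7.77 and 8.23 on the wild-type KDM5A arrays and 8.5 and 8.22 on the empty vector arrays. Its core partner Nop56 read 7.81 and 8.61 with KDM5A-H483A, 7.22 and 7.85 with wild-type KDM5A, against 8.06 and 7.74 with empty vector. The paralogous core protein Nop58 read 8.43 and 9.27, 7.91 and 8.65, and 8.53 and 8.71 in the same groups. Together with Rrp9, a protein of the U3 snoRNP, all 4 were lowest on the first wild-type KDM5A array and highest on the second KDM5A-H483A array. Rrp9 spanned only a 1.33-fold range over the 6 arrays, from 6.79 to 7.21.

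The box H/ACA genes were less uniform. Nhp2, an RNA-binding core protein, read 7.97 and 9.55 on the KDM5A-H483A arrays, 7.95 and 8.7 on the wild-type KDM5A arrays and 8.44 and 8.41 on the empty vector arrays. Dkc1, the pseudouridine synthase of the particle, read 8.67 and 9.13 with KDM5A-H483A, 8.42 and 9.38 with wild-type KDM5A, against 8.75 and 9.31 with empty vector. For Dkc1 the second array was the higher in all 3 groups, by 1.37-fold, 1.94-fold and 1.48-fold for KDM5A-H483A, wild-type KDM5A and empty vector. Gar1, another core protein, read 7.5 and 8.22 with KDM5A-H483A, 7.18 and 7.34 with wild-type KDM5A, against 7.67 and 7.47 with empty vector. Both wild-type KDM5A arrays of Gar1 lay below all 4 other arrays.

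Of the large subunit factors, Pes1, Bop1 and Wdr12 form the PeBoW complex needed for maturation of the large subunit RNAs. Pes1 read 5.1 and 6.35 on the KDM5A-H483A arrays, 4.96 and 5.33 on the wild-type KDM5A arrays and 5.32 and 5.25 on the empty vector arrays. Wdr12 read 5.22 and 6.43 with KDM5A-H483A, 5.48 and 5.81 with wild-type KDM5A, against 5.75 and 5.37 with empty vector. Bop1 varied less, with 6.74 and 7.34 with KDM5A-H483A, 6.72 and 7.18 with wild-type KDM5A, against 6.83 and 7.0 with empty vector. In all 3 subunits of PeBoW the second KDM5A-H483A array was the highest of the 6, while the lowest was a different array in Wdr12.

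Nop16, a nucleolar factor whose yeast counterpart acts in large subunit assembly, read 5.63 and 6.97 with KDM5A-H483A, 5.64 and 6.1 with wild-type KDM5A, against 6.07 and 5.96 with empty vector. Nop2, a methyltransferase of large subunit RNA, read 7.66 and 8.36 with KDM5A-H483A, 7.44 and 8.37 with wild-type KDM5A, against 7.75 and 8.13 with empty vector, with the second array the higher in all 3 groups. The assembly factors Ppan and Wdr74 kept to the common order. Ppan read 6.38 and 7.24, 6.27 and 6.43, and 6.54 and 6.36 on the KDM5A-H483A, wild-type KDM5A and empty vector arrays, and Wdr74 read 7.24 and 7.88, 7.04 and 7.36, and 7.47 and 7.19. The 7 large subunit genes had a median difference between replicates of 0.86 with KDM5A-H483A, 0.36 with wild-type KDM5A and -0.11 with empty vector.

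The small subunit genes showed the same order at the extremes in 5 of 5. Utp18, a protein of the small subunit processome, read 6.59 and 7.85 on the KDM5A-H483A arrays, 6.22 and 7.52 on the wild-type KDM5A arrays and 6.9 and 7.08 on the empty vector arrays. It differed between replicates by 2.39-fold with KDM5A-H483A and 2.46-fold with wild-type KDM5A, against 1.13-fold with empty vector. Rrp12, which in yeast is needed for maturation and export of pre-ribosomes, read 4.84 and 6.03 with KDM5A-H483A, 4.47 and 5.19 with wild-type KDM5A, against 4.93 and 4.93 with empty vector. The empty vector arrays of Rrp12 were equal to 2 decimals, so its spread came from the KDM5A groups.

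On the probe sets read here, the processome proteins Utp20 and Wdr43 differed less between replicates. Utp20 read 7.32 and 8.18 with KDM5A-H483A, 7.22 and 7.89 with wild-type KDM5A, against 7.53 and 7.66 with empty vector. Wdr43 read 7.92 and 8.71 with KDM5A-H483A, 7.51 and 8.18 with wild-type KDM5A, against 8.12 and 8.05 with empty vector. Another Wdr43 probe set differed more, by 1.25 with KDM5A-H483A, 0.87 with wild-type KDM5A and 0.23 with empty vector (log2). Rcl1, whose yeast counterpart acts in cleavage of the ribosomal RNA precursor, read 7.04 and 7.79, 7.01 and 7.34, and 7.19 and 7.45 in the same groups. The median difference between replicates of the 5 genes was 0.86 with KDM5A-H483A, 0.67 with wild-type KDM5A and 0.13 with empty vector.

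The 3 members of RNA polymerase I transcription had the smallest median difference between KDM5A-H483A replicates of the 7 roles. Ubtf, the upstream binding factor that activates ribosomal DNA, read 8.46 and 8.49 on the KDM5A-H483A arrays, 8.41 and 8.25 on the wild-type KDM5A arrays and 8.28 and 8.37 on the empty vector arrays. Its range over the 6 arrays was 1.18-fold, the smallest of the 31 members. Polr1b, a large catalytic subunit, read 4.78 and 5.19, 5.04 and 5.09, and 5.11 and 4.92 with KDM5A-H483A, wild-type KDM5A and empty vector. Polr1a, the other large catalytic subunit, read 6.2 and 6.63 with KDM5A-H483A, 6.35 and 6.79 with wild-type KDM5A, against 6.12 and 6.54 with empty vector, so that the second array was higher by a similar step in all 3 groups. Another Polr1a probe set differed in this, with the second array minus the first at 0.62 with KDM5A-H483A, 0.13 with wild-type KDM5A and -0.39 with empty vector (log2). A further Polr1a probe set gave 0.03, -0.11 and 0.09 in the same groups. The median difference between replicates of these 3 genes was 0.4, 0.05 and 0.09 in the KDM5A-H483A, wild-type KDM5A and empty vector arrays.

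The 4 MYC targets outside the nucleolus were also mixed. Odc1, the rate-limiting enzyme of polyamine synthesis, read 8.88 and 10.31 with KDM5A-H483A, 8.89 and 9.31 with wild-type KDM5A, against 9.44 and 9.3 with empty vector. Srm, the next enzyme of the pathway, read 9.49 and 9.57 with KDM5A-H483A, 9.52 and 9.75 with wild-type KDM5A, against 9.32 and 9.83 with empty vector. Odc1 was 2.68-fold higher on the second KDM5A-H483A array than on the first, while Srm differed most in the empty vector group. Cad, which carries out the opening steps of pyrimidine synthesis, read 7.22 and 7.98, 7.33 and 7.69, and 7.47 and 7.61 in the KDM5A-H483A, wild-type KDM5A and empty vector groups. Eif4a1, the RNA helicase of the cap-binding complex, read 10.4 and 11.2 with KDM5A-H483A, 10.48 and 10.97 with wild-type KDM5A, against 10.32 and 10.77 with empty vector, with the second array the higher in all 3 groups.

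KDM5A-H483A was compared with empty vector to ask what the protein without catalytic histidine does to these genes. Of the 31 members, 27 had a higher mean with KDM5A-H483A, with a median log2 difference of 0.23 (-0.14 to 0.66), against a median of 0.0 over all genes. Differences were tested with limma, a linear model that shares information on the spread across genes, with Benjamini-Hochberg adjustment of p over every gene measured. No member passed an adjusted p of 0.05, and neither did any other gene (0 of 18194, 0.0%). The smallest adjusted p of a member was 0.999. An unadjusted p below 0.05 was reached by 0 of 31 members and by 301 of 18194 genes. Ncl had the largest difference, with means of 10.52 ± 1.25 with KDM5A-H483A and 9.86 ± 0.34 with empty vector (SD, n = 2 each), a log2 difference of 0.66 with a 95% confidence interval of -0.64 to 1.95 (limma, adjusted p = 0.999). Rrp12 differed by 0.51 (-0.47 to 1.48), Pes1 by 0.44 (-0.47 to 1.36) and Ppan by 0.36 (-0.3 to 1.02).

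The direction of this comparison rested on the second KDM5A-H483A array. That array stood above both empty vector arrays for 29 of 31 members, all but Dkc1 and Srm, against 37.0% of all genes. The first KDM5A-H483A array stood below both empty vector arrays for 22 of 31, against 32.4% of all genes. Both arrays stood above both empty vector arrays for 1 member, Ubtf, where 13.6% of all genes did so, and both stood below for 0 members, where 14.6% did. Without the second KDM5A-H483A array, 1 of 31 members had a higher mean than empty vector and the median was -0.24. Without the first it was 30 of 31, with a median of 0.65.

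Wild-type KDM5A was compared with empty vector to ask what the active enzyme does. Of the 31 members, 8 had a higher and 23 a lower mean with wild-type KDM5A, with a median log2 difference of -0.12 (-0.52 to 0.24), against 0.0 over all genes. Limma called 0 members and 0.0% of all genes, with an unadjusted p below 0.05 for 0 of 31 members and 459 of 18194 genes. Nolc1 had the largest difference, with means of 6.45 and 6.96 for wild-type KDM5A and empty vector, at -0.52 (95% confidence interval -1.65 to 0.61). Its sign depended on the probe set, as other Nolc1 probe sets above the median probe set gave -0.2 and 0.37. The 4 box C/D genes had a median of -0.35, the 3 RNA polymerase I genes a median of 0.05.

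For the median member, the 2 wild-type KDM5A arrays again lay on opposite sides of the empty vector arrays. Relative to each gene's own mean they stood at -0.42 and 0.07, against -0.06 and -0.02 with empty vector. This did not hold for every member. The first wild-type KDM5A array stood below both empty vector arrays for 25 of 31 members, against 32.7% of all genes. The second stood above both for 17 of 31, against 35.8%. Both arrays stood below both empty vector arrays for 1 member, Gar1, against 15.4% of all genes, and above for 0 members, against 16.5%. Without the first wild-type KDM5A array, 23 of 31 members had a higher mean than empty vector and the median was 0.08, and without the second 3 of 31 did and the median was -0.38.

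KDM5A-H483A was compared with wild-type KDM5A to ask which levels differ when the catalytic histidine is replaced. Of the 31 members, 27 had a higher mean with KDM5A-H483A, with a median log2 difference of 0.36 (-0.15 to 0.98), against -0.01 over all genes. The 4 with a lower mean on their main probe set were Polr1a, Polr1b, Mybbp1a and Srm. For 2 of them the sign depended on the probe set. Their other probe sets above the median probe set gave 0.2 and 0.45 for Polr1a and 0.42 for Mybbp1a. With the mean of all probe sets per gene, 29 of 31 members had a higher mean with KDM5A-H483A. The box C/D genes had a median of 0.59, with Nop56 at 0.68 (95% confidence interval -0.09 to 1.44), Fbl at 0.62 (-0.23 to 1.47) and Nop58 at 0.57 (-0.24 to 1.38). Ncl differed by 0.98 (-0.31 to 2.28) and Nolc1 by 0.81 (-0.33 to 1.94). Other Nolc1 probe sets above the median probe set gave 0.36 and -0.17. Limma called 0 members and 0.0% of all genes, with an unadjusted p below 0.05 for 1 of 31 members and 694 of 18194 genes.

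Gar1 was the member with the smallest p between the KDM5A forms. Its means were 7.86 with KDM5A-H483A and 7.26 with wild-type KDM5A, a difference of 0.6 ± 0.24 (SE) with a 95% confidence interval of 0.02 to 1.18 (limma, unadjusted p = 0.0436, adjusted p = 0.928). Gar1 and Ubtf had both KDM5A-H483A arrays above both wild-type KDM5A arrays, against 14.9% of all genes, and 0 members had both below, against 16.1%. Without the second KDM5A-H483A array, 11 of 31 members had a higher mean with KDM5A-H483A, with a median of -0.14. Without the first it was 30 of 31, with a median of 0.79, and without the first wild-type KDM5A array it was 19 of 31, with a median of 0.07. The 3 comparisons share arrays in pairs, so their values are not independent of each other.

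**Figure D3:**
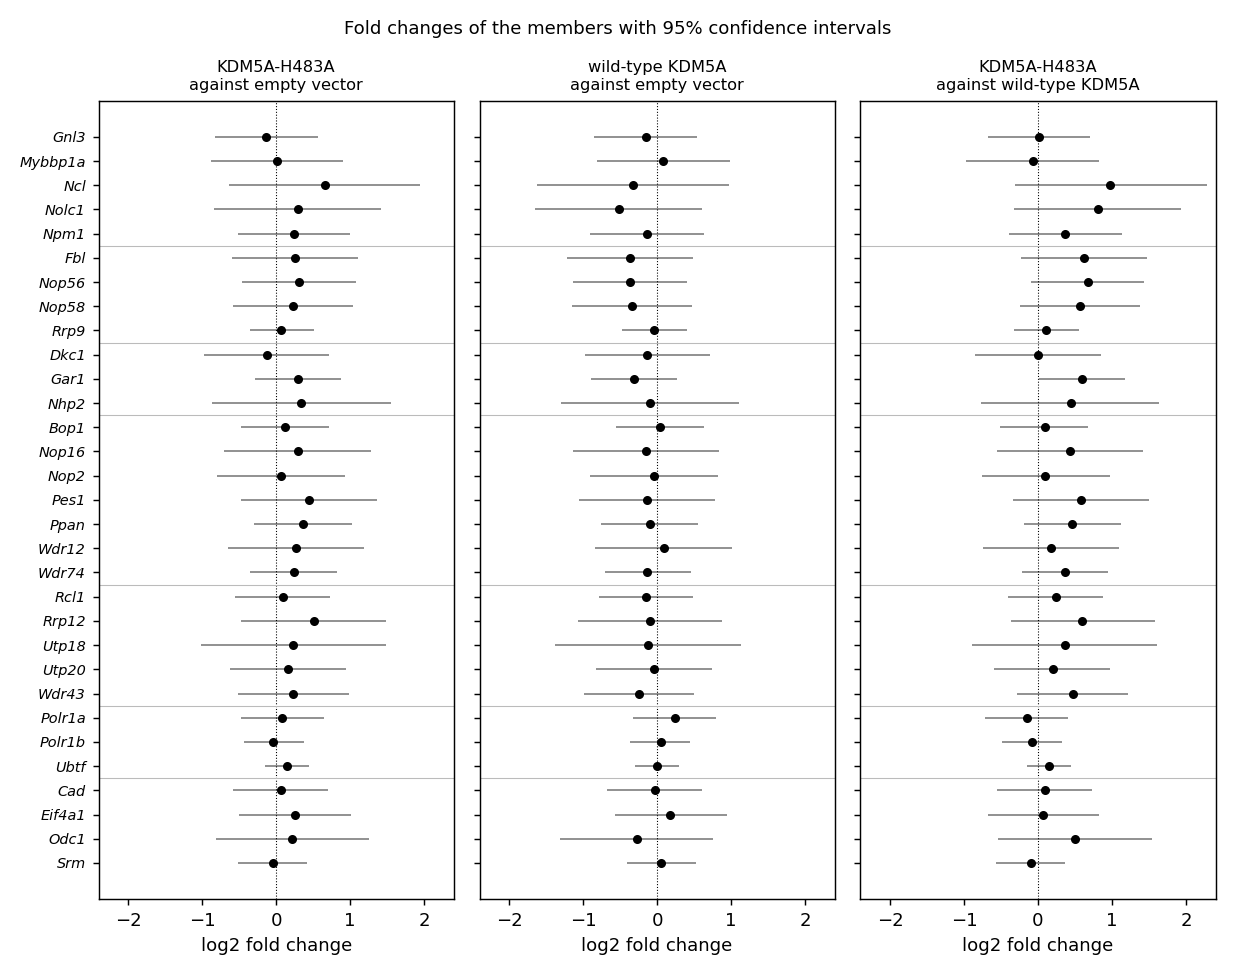
Log2 difference of each of the 31 members in the 3 comparisons, with the 95% confidence interval from limma as a bar. The interval of Gar1 for KDM5A-H483A against wild-type KDM5A (0.02 to 1.18) lies above 0, and all the others drawn include 0.

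The intervals of the members were wide. Their half-width in a comparison had a median of 0.77 on the log2 scale (0.3 to 1.29), against 0.37 over all genes, and the median standard error was 0.32 against 0.15.

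Other probe sets of the same genes showed the same split. Another 31 probe sets belonged to 19 of the members, 21 of them with a mean above the median probe set. The second array was higher for 21 of 21 with KDM5A-H483A, 20 of 21 with wild-type KDM5A and 14 of 21 with empty vector, with median differences of 0.99, 0.71 and 0.14. Their median difference between groups was 0.2 for KDM5A-H483A against empty vector, -0.18 for wild-type KDM5A against empty vector and 0.42 for KDM5A-H483A against wild-type KDM5A. They share RNA and array with the main probe sets and are no further replicates. Probe sets of a gene could disagree in size and in direction. For Ncl the other probe sets gave between -0.05 and 0.84 for KDM5A-H483A against empty vector.

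Other genes of the pathway were read in the same way. Of 47 other large subunit genes, the second KDM5A-H483A array was above the first by a median of 0.63, the second wild-type KDM5A array by 0.35 and the second empty vector array by -0.01. Gtpbp4, a nucleolar GTPase, read 6.66 and 8.2 with KDM5A-H483A, 6.25 and 6.99 with wild-type KDM5A, against 6.88 and 6.77 with empty vector. Rrs1, a large subunit assembly factor, read 7.04 and 8.32, 7.08 and 8.06, and 7.25 and 7.75 in the same groups. The medians of 41 other small subunit processome genes were 0.38, 0.34 and 0.03, and those of 24 genes of snoRNP assembly and the exosome were 0.51, 0.32 and 0.01, for KDM5A-H483A, wild-type KDM5A and empty vector. For 14 other genes of RNA polymerase I transcription they were 0.34, 0.18 and 0.01. The second array was higher in both KDM5A groups for 39 of the 47 large subunit genes, 32 of the 41 small subunit genes, 21 of the 24 genes of snoRNPs and the exosome and 7 of the 14 polymerase I genes, against 30 of 31 members and 28.4% of all genes. The differences between lists were not tested. For KDM5A-H483A against empty vector, the mean was higher for 33 of the 47 large subunit genes, 27 of the 41 small subunit genes, 17 of the 24 genes of snoRNPs and the exosome and 11 of the 14 polymerase I genes, against 9142 of 18194 genes. These means combine unlike arrays, since 44 of the 47 large subunit genes lay below their own mean on the first KDM5A-H483A array and 40 of 47 above it on the second. No gene of these lists passed limma's threshold in any of the 3 comparisons.

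Lists next to the MYC targets were also read. Another 25 genes of polyamine and nucleotide synthesis had median differences between replicates of 0.35, 0.27 and 0.02 with KDM5A-H483A, wild-type KDM5A and empty vector, and 33 translation initiation factors had 0.35, 0.19 and 0.06. The 44 measured genes of cytosolic ribosomal proteins differed between the KDM5A groups, with 0.6 for KDM5A-H483A, 0.05 for wild-type KDM5A and -0.19 for empty vector, a contrast that was not tested. The medians of the 14 genes of the MYC and MAX network were 0.12, 0.08 and 0.03. Myc itself read 6.88 and 7.21 with KDM5A-H483A, 6.73 and 7.69 with wild-type KDM5A, against 6.86 and 6.88 with empty vector, so that its highest array was the second wild-type KDM5A array and not the array where most members peaked.

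Markers of other kinds differed between the same arrays. The 19 proliferation genes had median differences between replicates of 0.52, 0.34 and 0.05 with KDM5A-H483A, wild-type KDM5A and empty vector. The 17 fibroblast markers ran the other way, with medians of -0.81, -0.73 and -0.22, and 0 of 17 were higher on the second array in both KDM5A groups. Their summed linear level lay between 33500 and 47000 with KDM5A-H483A, 30100 and 50200 with wild-type KDM5A, against 39900 and 42900 with empty vector. The 10 genes of stress and RNA quality had medians of -0.01, -0.17 and -0.25, with members far apart on both sides of 0. Fos, an immediate early transcription factor, read 9.51 and 6.41 with KDM5A-H483A, 9.7 and 7.08 with wild-type KDM5A, against 8.82 and 7.52 with empty vector. Egr1, another immediate early factor, read 10.72 and 8.59, 10.69 and 8.74, and 10.73 and 9.44 in the same groups. Both were lower on the second array in all 3 groups. The chaperone gene Hspa8 read 9.92 and 10.94 with KDM5A-H483A, 9.77 and 9.94 with wild-type KDM5A, against 10.27 and 9.67 with empty vector. In the KDM5A-H483A arrays, 3 of the 10 were higher and 3 lower by at least 0.5 on the second array. The part of these differences in the members' values was not tested.

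**Figure D4:**
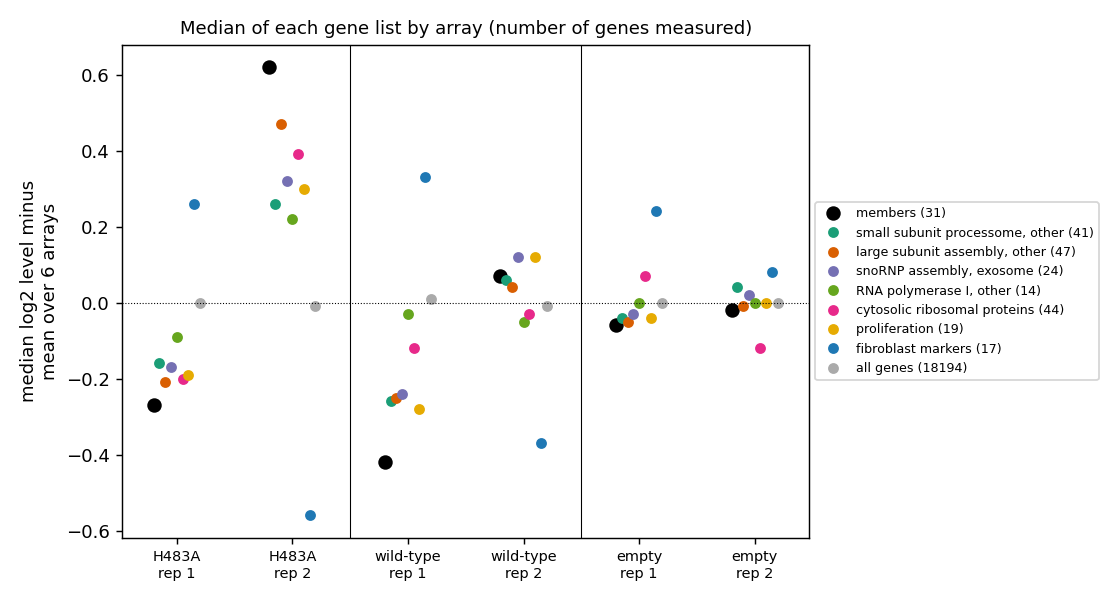
Median deviation from each gene's own mean (log2 scale) of the members, related gene lists and marker lists on each of the 6 arrays. The members stand at -0.27 and 0.62 on the KDM5A-H483A arrays and at -0.42 and 0.07 on the wild-type KDM5A arrays, while the fibroblast markers stand at 0.26 and -0.56 and at 0.33 and -0.37.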

How the data were processed

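The authors deposited log2 expression values of 6 arrays, made with RMA (background correction, quantile normalization and probe summary) per the submitters' processing notes. Its version was not given in any source at hand. Per the labels, a kit for whole transcripts was used for labelling, while probe sets of this array type lie near 3' ends, and how the kit and the array were combined is not stated. No further scaling was applied. Of 45101 probe sets, 34958 had 1 gene symbol, 932 several and 9211 none, and symbols were updated through Entrez identifiers for 34754. Genes outside the resulting 18194 were not analysed here. An array value holds no count of molecules, and the number of arrays limits the precision.

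Limma (3.58.1, R 4.3.3) was fitted to all genes and all 6 arrays with 1 mean per group (3 residual and 3.42 prior degrees of freedom), with two-sided p-values adjusted by Benjamini-Hochberg over 18194 genes and a threshold of 0.05. The fit was tested on simulated data with noise independent between genes and arrays. Those data hold no replicate difference shared by many genes, so the simulation does not cover the spread seen here. All members are named. Of other lists, at most the 2 genes with the largest difference for KDM5A-H483A against empty vector and the 2 with the largest mean difference between replicates in the KDM5A groups could be named, besides Myc, Mycn and Max. The members, lists and thresholds were chosen with earlier results of these data known. Leaving out an array, other probe set rules, other scalings and a replicate block were tried.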

Additional observations from a re-analysis of the deposited data

How the results depend on the processing

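Leaving out 1 array in turn moved the median log2 difference of the members to between -0.24 and 0.65 for KDM5A-H483A over empty vector, and to between -0.14 and 0.79 for KDM5A-H483A over wild-type KDM5A, with the second and the first KDM5A-H483A array at the 2 ends. For wild-type KDM5A against empty vector it lay between -0.38 and 0.08. With the mean of all probe sets per gene, 0 members had both KDM5A-H483A arrays above both empty vector arrays, against 1 otherwise. With quantile normalization repeated, 3 members had both wild-type KDM5A arrays below both empty vector arrays, against 1 otherwise. Without these changes, 13.6% of all genes had both KDM5A-H483A arrays above and 15.4% had both wild-type KDM5A arrays below. The shares of all genes under the changed settings are not given here, so neither count is read as a result. The other 123 of 129 alternative values differed from the reported ones by less than the spread between replicates (0.39, log2), or 1.5-fold for counts. Part of them could not differ, such as the medians under a replicate block or without an array of the third group. Neither change enters a difference between the group means compared, so these values add no check. The bar of 0.39 is larger in size than each median difference between groups, so a median could vanish or change sign below it. Without the first wild-type KDM5A array, the median for wild-type KDM5A over empty vector lay above 0. That for KDM5A-H483A over wild-type KDM5A fell from 0.36 to 0.07 without the same array. The count of members called by limma was 0 in every setting run. Where a group was left with 1 array, its spread was assumed to equal that of the other groups. With a replicate block no member was called either. The medians were 0.23 for KDM5A-H483A over empty vector, -0.12 for wild-type KDM5A over empty vector and 0.36 for KDM5A-H483A over wild-type KDM5A. They equal those without the block by design, since each group holds 1 array of each replicate number. In the third comparison 4 of 31 members had an unadjusted p below 0.05 in limma, with 0 of 18194 genes called. The smallest adjusted p of any gene was 0.795 there. The share of all genes with an unadjusted p below 0.05 under the block is not given here, so the 4 are not read as a result. The labels name no batch behind the numbers. Over all genes the differences between replicates correlated at 0.534 between KDM5A-H483A and wild-type KDM5A, 0.016 between KDM5A-H483A and empty vector and 0.312 between wild-type KDM5A and empty vector, and the numbers were not treated as paired.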

Other observations

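Single ribosomal protein genes went against their list on the second KDM5A-H483A array. Rpl27a read 11.66 and 10.35 with KDM5A-H483A, 11.63 and 11.95 with wild-type KDM5A, against 11.43 and 12.04 with empty vector, and Rps24 read 6.78 and 5.67, 7.06 and 6.76, and 6.75 and 7.34. Rps9 and Rpl8 lay on the other side, with Rps9 at 9.03 and 10.57 with KDM5A-H483A, 9.15 and 9.17 with wild-type KDM5A, against 9.39 and 8.98 with empty vector. Of 79 listed ribosomal protein genes 44 were measured, and those with near-identical processed copies in the genome are uncertain.

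Mycn, a paralogue of Myc, read 11.57 and 11.86 with KDM5A-H483A, 11.58 and 11.82 with wild-type KDM5A, against 12.44 and 12.63 with empty vector. All 4 arrays of the KDM5A groups lay below both empty vector arrays. Of all genes, 14.6% had both KDM5A-H483A arrays below both empty vector arrays, and 15.4% had both wild-type KDM5A arrays below them. The share of genes with both is not given here. No gene passed the adjusted threshold in limma.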
